A study of Mus musculus with 14 samples.

Results

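The genes described here encode the pore-forming and closely related subunits of sodium, potassium and calcium channels. They were chosen by name, as every mouse gene whose symbol is Scn, Kcn or Cacna1 followed by the letter and number of a single subunit, with the exception of Kcnj10, Kcnv2 and Cacna1f. This gave 101 genes of the 26161 genes named in the count tables: 14 sodium channel genes, 78 potassium channel genes and 9 calcium channel genes. By the same naming rule the set also holds inward rectifiers, two-pore leak channels, calcium-activated channels and accessory subunits, which are not gated by voltage alone, so it is called the channel genes below.

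Voltage-gated channels open when the membrane potential changes. Sodium channels carry the rising phase of the action potential, potassium channels bring the membrane back to rest, and calcium channels couple depolarisation to transmitter release. In the retina, ganglion cells and many amacrine cells fire sodium spikes. Rods and cones answer light with graded potentials, which are shaped by potassium and hyperpolarisation-activated currents of the inner segment.

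RNA libraries of shBCOR and control cells were compared, 2 in each group. Both came from wild-type CD1 mice whose eyes were electroporated on postnatal day 0 with plasmid at 1 µg/µl, in the shBCOR group with a short hairpin construct against Bcor (pSilencer-shBcor) and in the control group with the empty vector pSilencer-CAG-Venus. Fluorescent cells were sorted 21 days later and combined from several sorted samples into pools of 30000 to 70000 cells. The number of eyes and litters in a pool is not given in the labels, so the tests measure the spread between pools. Plasmid introduced at this age enters dividing progenitors, which then give mainly rods, along with bipolar, Müller glia and some amacrine cells. Bcor encodes a transcriptional corepressor, which the title of the series names as a partner of OTX2 and CRX.

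The libraries held 3173927 and 4093380 counts in shBCOR cells and 5107174 and 4973402 in control cells. Of the 6 records of the targeted gene, Bcor, 5 were at 0 in every library, and the sixth had 0 and 13 counts in shBCOR cells and 20 and 8 in control cells (log2 fold change −0.63 ± 2.40, SE from 2 libraries a group as throughout; edgeR adjusted p = 0.991), so its lowering was not detectable in these counts. The sorted cells carried rod genes at a high level. The 15 rod markers summed to 239400 to 278000 CPM in shBCOR cells and 206300 to 207500 CPM in control cells, with Gnb1 and Nrl at 0 in all libraries. Here and below, CPM are counts normalised to library size, scaled by the trimmed mean of M values (TMM).

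Whether a channel gene had any count at all went with the number of RefSeq records under which it was listed. Of the 53 channel genes with a single record, 35 (66.0%) had a count in some library, against 7 of the 48 genes with several records (14.6%). Over all genes these shares were 46.4% and 36.2%. The genes at 0 with several records were 41 in number. They included the neuronal sodium channels Scn1a, Scn2a, Scn3a and Scn8a, the L-type and P/Q-type calcium channels Cacna1d and Cacna1a, and the potassium channels Kcnc2 and Kcnd3. A value of 0 for such a gene is that of the deposited table, and its level in these cells is uncertain. A further 18 genes had a single record and 0 counts in all libraries. Among them were Kcnv1, Kcnq1, Kcnj13, Kcnh8, Scn4b and Scn11a. For these, 3 counts in a library, the limit that a count of 0 allows, correspond to 1.03 and 0.763 CPM in the shBCOR libraries and 0.553 and 0.567 CPM in the control libraries, counting error alone.

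The channel genes held 0.587 and 0.589% of all counts in the shBCOR libraries and 0.579 and 0.538% in the control libraries. Kcnj14, an inward rectifier subunit, took 16.3 and 12.8% of the channel counts in shBCOR cells and 14 and 15.3% in control cells. These are shares of counts and are not divided by transcript length, which was not used here, so they do not rank the channels by level.

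**Figure D1:**
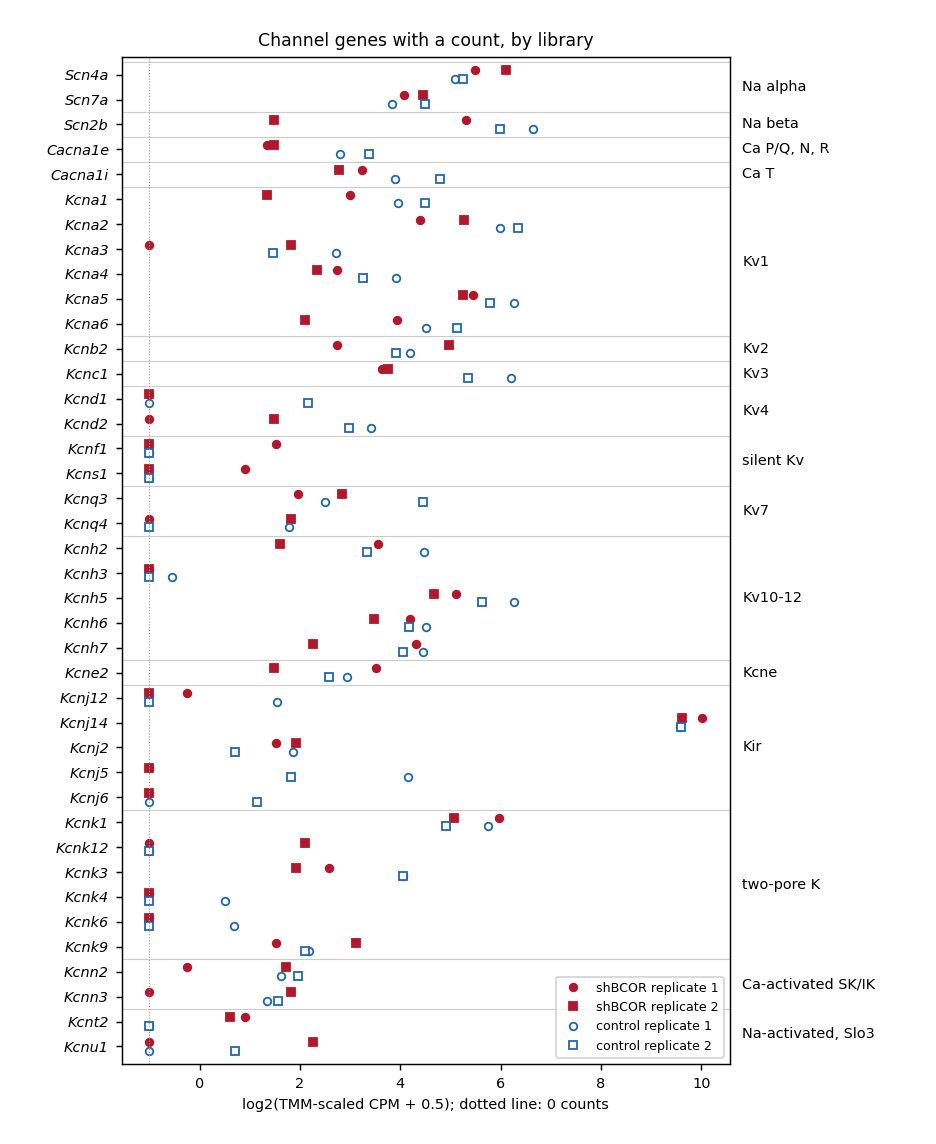
Level of 40 of the 42 channel genes with a count, as log2(TMM-scaled CPM + 0.5), in the 2 shBCOR libraries (filled) and the 2 control libraries (open), grouped by family. Kcnj14 stands to the right of the other genes drawn, and most Kv1 genes, Kcnc1, Scn2b and the calcium channel genes have both shBCOR libraries to the left of both controls.

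The comparison of shBCOR with control cells asks how these genes differ when BCOR is targeted. Enough counts for the test were held by 31 of the 101 genes, and 0 of them passed at an adjusted p under 0.05 (edgeR quasi-likelihood test over 7775 genes, of which 7, or 0.09%, passed, 0.0514% as lower and 0.0386% as higher). At an unadjusted p under 0.05, 5 channel genes were lower (16.1%, against 5.11% of all genes) and 1 was higher (3.23%, against 4.19%). By DESeq2, 4 of the 32 channel genes with an adjusted p passed (12.5%, against 4.67% of all genes). Of these, 3 were lower, namely Kcnc1, Kcna2 and Kcnj5 (2.42% of all genes were), and 1 was higher (2.25% of all genes were). The shBCOR libraries were both lower than either control in 14 of the 31 genes (45.2%, against 23.2% of all genes), and above them for 3 (9.68%, against 18.8% of all genes). The median log2 fold change was −1.08 over the 31 genes, whether Kcnj5, with 0 shBCOR counts, was taken at its fitted value or at its bound, and −0.01 over all genes tested. The filter keeps a gene with enough counts in the libraries of either group, so genes low in both groups are not among the 31. These shares describe the list and are not a test of it.

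**Figure D2:**
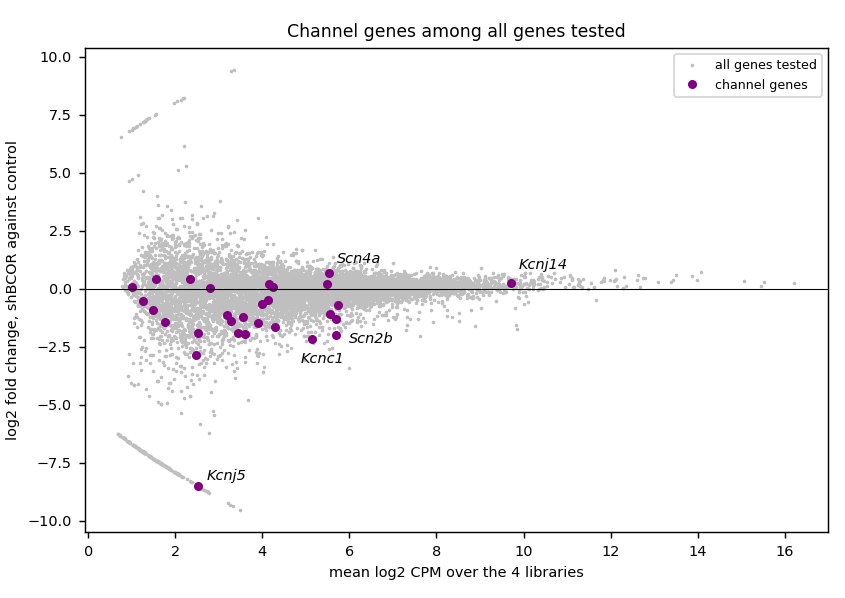
Log2 fold change of shBCOR against control (vertical axis) against mean log2 CPM (horizontal axis) for the 7775 genes tested (grey) and 29 of the 31 channel genes (purple). Kcnj14 lies slightly above 0 at the high end, and 20 of the 29 lie below 0 (50.9% of all genes tested do). The fitted value of Kcnj5 is that of a gene with 0 shBCOR counts and has no meaningful size.

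Of the 13 rod markers tested, 10 had both shBCOR libraries above the controls (18.8% of all genes did), the median was 0.30, and 1, the outer segment protein gene Rp1, rose (log2 fold change 0.72 ± 0.07, edgeR adjusted p = 0.0174). The part of these markers in the channel values was not tested. Kcnb2, a delayed rectifier subunit, had 6.16 and 30.8 CPM in shBCOR cells and 17.7 and 14.5 CPM in control cells, so the shBCOR libraries stood on either side of the controls.

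The photoreceptor potassium channel subunit Kcnv2 is not among the 101 genes, and its log2 fold change was 0.54 ± 0.10 (edgeR adjusted p = 0.104), with both shBCOR libraries above the controls. The photoreceptor synaptic calcium channel Cacna1f had 0.16 ± 0.16 (adjusted p = 0.879) and the Müller glia channel Kcnj10 had −0.77 ± 0.21 (adjusted p = 0.268). DESeq2 called Kcnv2 as higher and Kcnj10 as lower.

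The inward rectifiers hold the resting potential near the potassium equilibrium. Kcnj14 had 1039 and 783 CPM in shBCOR cells, against 762 and 773 CPM in control cells. Its groups did not overlap, but shBCOR replicate 2 lay just above the higher control (log2 fold change 0.25 ± 0.15, edgeR adjusted p = 0.682). Kcnj5, a subunit of G-protein-gated channels, had 0 counts in both shBCOR libraries, against 94 and 16 counts in control cells. Taken against 3 counts per shBCOR library, counting error alone, it was 11.4-fold lower in shBCOR cells (edgeR adjusted p = 0.328, DESeq2 adjusted p = 0.00577). Since replicates differed by more than counting error, this bound is not a firm limit. All counts of Kcnj5 lay in 1 of its 2 records and most of them in control replicate 1. Without that library the bound was 3.38-fold (19.4-fold without control replicate 2). Of the 14 inward rectifier genes, 9 were at 0 throughout; Kcnj4 and Kcnj13 among them have a single record and the others several.

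The Kv1 family, whose channels sit along axons and at terminals and limit repetitive firing, was the family with the most genes measured. Of its 8 genes 6 were tested, 0 passed, and all 6 had a negative log2 fold change (50.9% of all genes had), with a median of −1.35. Of the 6, 5 had both shBCOR libraries below the controls (23.2% of all genes did), and 1, Kcna2, was lower at an unadjusted p under 0.05 (5.11% of all genes) and by DESeq2 (2.42% of all genes). Kcna2 had 60 and 150 counts in shBCOR cells and 341 and 431 in control cells. This was 20.5 and 38.1 CPM in shBCOR cells, against 62.9 and 81.4 CPM in control cells, with a log2 fold change of −1.29 ± 0.39 (SE; edgeR adjusted p = 0.331; DESeq2 adjusted p = 0.0116). Kcna1 and Kcna6 had wide shBCOR values. Kcna1 had 7.53 and 2.03 CPM in shBCOR cells and 14.9 and 21.9 CPM in control cells (−1.96 ± 0.85, adjusted p = 0.545). Kcna6 had 14.7 and 3.81 CPM in shBCOR cells and 22.3 and 34.6 CPM in control cells (−1.64 ± 0.71, adjusted p = 0.545). In both genes shBCOR replicate 1 was the higher library of its group, and without it the log2 fold changes were −3.16 and −2.89. Kcna5, known from heart and vessel muscle, had 43.1 and 37.4 CPM in shBCOR cells and 76.7 and 54.8 CPM in control cells (−0.71 ± 0.32, adjusted p = 0.562). Kcna4, an A-type subunit that inactivates quickly, had 6.16 and 4.58 CPM in shBCOR cells and 14.6 and 9.07 CPM in control cells (−1.14 ± 0.88, adjusted p = 0.784). Summed over the family, Kv1 genes had 92 and 89 CPM in shBCOR cells and 197.5 and 204 CPM in control cells, so the libraries of a group differed little in the sum while single members differed severalfold.

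Kcnc1, a Kv3 subunit that repolarises fast-spiking neurons, had the smallest p among the channel genes. It had 35 and 51 counts in shBCOR cells and 396 and 212 in control cells. This was 12 and 13 CPM in shBCOR cells, against 73.0 and 40.0 CPM in control cells, with the shBCOR libraries close together and the controls apart. On the log2 scale the change was −2.18 ± 0.45 (SE), a factor of 4.53, and it did not pass in edgeR (adjusted p = 0.153), while DESeq2 gave an adjusted p of 5.03e-05. Both its records, NM_008421 and NM_001112739, pointed the same way, with 28 and 41 counts in shBCOR cells against 354 and 181 in control cells for NM_008421, and 7 and 10 against 42 and 31 for NM_001112739. The Kv3 genes Kcnc2 and Kcnc4 have several records and were at 0. Kcnd2, an A-type subunit of dendrites, had 0 and 9 counts in shBCOR cells and 55 and 39 in control cells (−2.87 ± 1.77, adjusted p = 0.691). Only 1 shBCOR library held counts for it, so the size of this value is not well determined.

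Promoters are shown for Kcnc1, Kcna2 and Kcnj5, the channel genes that were lower by DESeq2, since those are the lower genes with a call by that tool. Each sequence covers 250 bases before to 50 bases after the annotated start (RefSeq, GRCm38.p6), read 5′ to 3′ along the gene, with GC boxes (GGGCGG on either strand) in capitals.
Kcnc1 promoter, chr7:46396218-46396517, plus strand: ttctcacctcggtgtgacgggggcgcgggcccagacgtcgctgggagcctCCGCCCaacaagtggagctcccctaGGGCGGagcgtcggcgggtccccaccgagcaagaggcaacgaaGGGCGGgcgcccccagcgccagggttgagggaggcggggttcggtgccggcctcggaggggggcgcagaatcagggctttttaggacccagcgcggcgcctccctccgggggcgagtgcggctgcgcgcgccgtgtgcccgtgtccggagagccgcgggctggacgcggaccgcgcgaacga
Kcna2 promoter, chr3:107101317-107101616, plus strand: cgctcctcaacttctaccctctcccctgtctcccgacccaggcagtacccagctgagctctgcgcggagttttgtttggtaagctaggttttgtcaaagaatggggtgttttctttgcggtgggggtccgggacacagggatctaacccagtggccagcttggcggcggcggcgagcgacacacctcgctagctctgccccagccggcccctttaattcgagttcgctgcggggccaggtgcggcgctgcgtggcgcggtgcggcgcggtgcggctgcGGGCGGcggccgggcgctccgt
Kcnj5 promoter, chr9:32344295-32344594, minus strand: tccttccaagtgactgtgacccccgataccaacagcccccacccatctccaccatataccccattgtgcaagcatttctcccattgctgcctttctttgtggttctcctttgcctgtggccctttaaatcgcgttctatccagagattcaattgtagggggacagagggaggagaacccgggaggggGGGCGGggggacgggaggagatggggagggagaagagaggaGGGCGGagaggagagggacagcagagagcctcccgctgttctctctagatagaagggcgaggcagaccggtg

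A promoter was given for 71 of the 101 channel genes, and 92 promoters in all. The GC box was in 43.5% of these and in 59.1% of the 22 promoters of channel genes tested, against 35.7% of all 32851 promoters of that length. The homeobox core TAATCC of OTX2 and CRX, on either strand, was in 5.43% of the channel promoters and 4.55% of those of channel genes tested, against 7.06% of all. The TATA box TATAAA was in 6.52% of channel promoters and in 0 of the 22 of channel genes tested, against 13.6% of all. The 3 promoters shown held no TAATCC or TATAAA on either strand. The median GC content was 57.7% in channel promoters and 62.8% in those of channel genes tested, against 52.7% in all. The promoters of all genes tested were not taken as a set of their own. The shares of the 22 thus stand beside promoters of genes with and without counts, and cannot be read as traits of channel genes. A match of letters in such a window is a description and not a binding site, and no match says only that the letters are absent from it.

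The Kv10 to Kv12 families, relatives of ether-a-go-go, had 4 of 8 genes tested, all with a negative log2 fold change (50.9% of all genes had) and 0 passing. By edgeR 1 was lower at an unadjusted p under 0.05 (5.11% of all genes were), and 0 by DESeq2 (2.42% of all genes were). That gene, Kcnh5, had 34.2 and 25.2 CPM in shBCOR cells, against 76.4 and 48.9 CPM in control cells (−1.08 ± 0.38, SE; edgeR adjusted p = 0.419), and its groups did not overlap. The groups overlapped for the erg genes. Kcnh2 had 11.3 and 2.54 CPM in shBCOR cells and 21.8 and 9.63 CPM in control cells (−1.20 ± 0.92, adjusted p = 0.783). Kcnh6 had 17.8 and 10.7 CPM in shBCOR cells and 22.3 and 17.6 CPM in control cells (−0.49 ± 0.55, adjusted p = 0.896), so shBCOR replicate 1 lay between the controls. Kcnq3, a subunit of the M-current that damps firing, had 3.42 and 6.61 CPM in shBCOR cells and 5.17 and 21.5 CPM in control cells (−1.40 ± 1.00, adjusted p = 0.75). Its groups overlapped, and control replicate 2 stood apart from the other 3 libraries.

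Leak and calcium-activated potassium channels were measured less well. Among the two-pore channels, which set the resting conductance, Kcnk3 had 5.47 and 3.31 CPM in shBCOR cells, against 16.2 and 16.1 CPM in control cells (−1.88 ± 0.79, edgeR adjusted p = 0.529). Its groups did not overlap and the controls were nearly equal. Kcnk1, of the same family, had 61.9 and 33.3 CPM in shBCOR cells and 53.5 and 29.5 CPM in control cells (0.19 ± 0.45, adjusted p = 0.979), with overlapping groups. The small-conductance channel Kcnn2, which opens on intracellular calcium, had 1 and 11 counts in shBCOR cells and 14 and 18 in control cells (−0.90 ± 2.13, adjusted p = 0.979). The accessory subunit Kcne2 had 32 and 9 counts in shBCOR cells and 39 and 29 in control cells (0.05 ± 1.21, adjusted p = 0.999). The counts of shBCOR replicate 1 lay in its record NM_134110 and those of shBCOR replicate 2 in NM_001358372. The sodium-activated channel Kcnt2 had 4 and 4 counts in shBCOR cells and 0 in both control libraries, too few for the test, and Kcnu1, a potassium channel of sperm, had 0 and 17 counts in shBCOR cells and 0 and 6 in control cells.

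Of the 14 sodium channel genes, 4 had counts. Scn2b, a beta subunit of a kind that modulates gating and binds adhesion molecules, had 115 and 9 counts in shBCOR cells and 539 and 335 in control cells, or 39.3 and 2.29 CPM in shBCOR cells, against 99.4 and 63.3 CPM in control cells. Both shBCOR libraries lay below the controls, but they differed from each other more than the higher of them differed from the lower control. Its log2 fold change was −2.0 ± 0.94 (SE; edgeR adjusted p = 0.563), but −5.14 without shBCOR replicate 1 and −1.06 without shBCOR replicate 2. Both alpha subunits with counts had positive values. Scn4a, the alpha subunit of skeletal muscle, had 44.1 and 68.4 CPM in shBCOR cells, against 33.6 and 37.4 CPM in control cells, with no overlap (0.67 ± 0.36, adjusted p = 0.617). Scn7a, an atypical sodium channel, had 16.4 and 21.4 CPM in shBCOR cells and 13.8 and 22.1 CPM in control cells (0.07 ± 0.53, adjusted p = 0.996), with overlapping groups.

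Of the 9 calcium channel genes, 2 had counts, and each had both shBCOR libraries below both controls (23.2% of all genes did). Cacna1i, a T-type subunit that opens near rest and supports burst firing, had 8.89 and 6.36 CPM in shBCOR cells, against 14.4 and 27.4 CPM in control cells (−1.46 ± 0.66, SE; edgeR adjusted p = 0.557). Cacna1e, the R-type subunit, had 6 and 9 counts in shBCOR cells and 35 and 52 in control cells (−1.89 ± 1.32, adjusted p = 0.747). The other 7 genes have several records and were at 0.

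**Figure D3:**
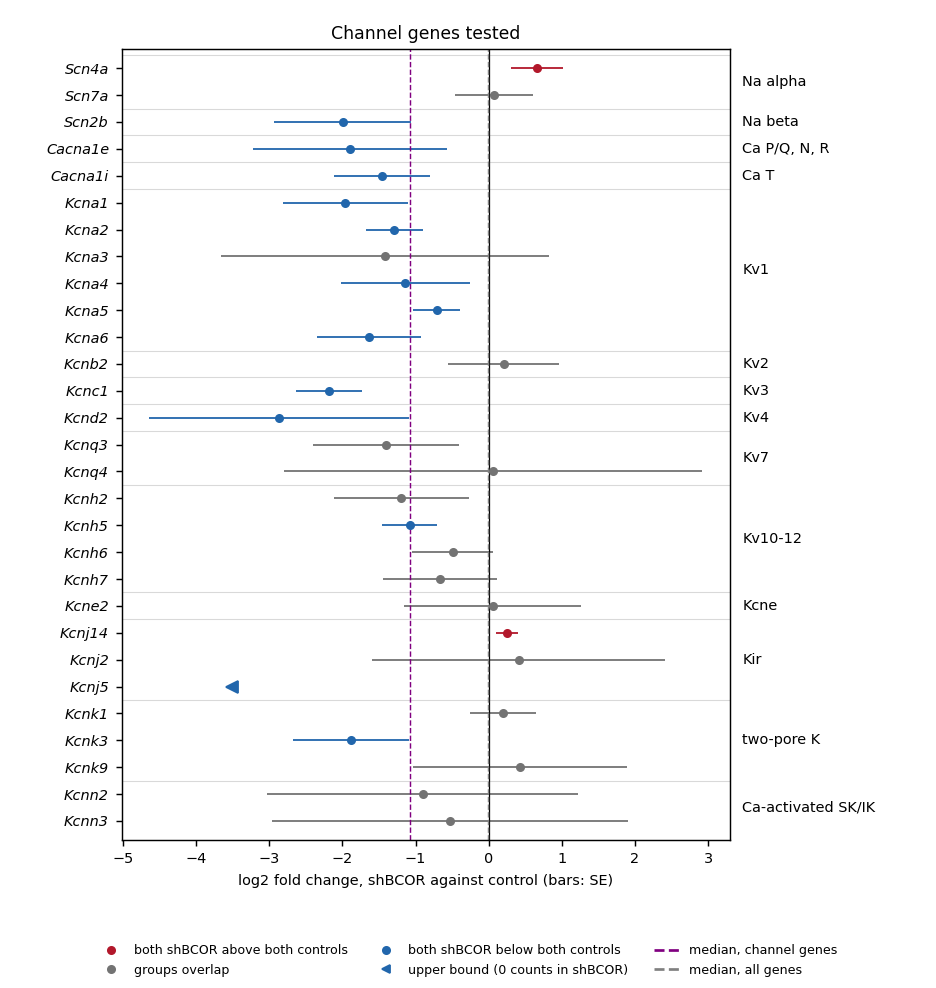
Log2 fold change of shBCOR against control with its SE for 29 of the 31 channel genes tested, by family. All 6 Kv1 genes lie below 0 (50.9% of all genes tested do). Of the genes drawn, 13 are marked as having both shBCOR libraries below both controls (23.2% of all genes) and 2 as above (18.8%). Kcnj5 is drawn at its upper bound, and dashed lines mark the medians of all 31 channel genes (−1.08) and of all genes (−0.01).

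Summed over all channel genes, the shBCOR libraries had 6372 and 6129 CPM and the control libraries 5454 and 5053 CPM. The sum was thus higher in both shBCOR libraries, but it is weighted to the few genes with the most counts. It does not describe most members: of the 31 tested, 21 (67.7%) had a negative log2 fold change, against 50.9% of all genes. The inward rectifiers, mostly Kcnj14, also summed higher, with 1041 and 786 CPM in shBCOR cells and 784.5 and 779 CPM in control cells. So did the sodium alpha subunits, with 60.5 and 89.8 CPM in shBCOR cells and 47.4 and 59.5 CPM in control cells. On the other side, the Kv10 to Kv12 genes had 82.8 and 42.7 CPM in shBCOR cells and 142 and 92.2 CPM in control cells. The calcium channel genes had 11 and 8.65 CPM in shBCOR cells and 20.8 and 37.2 CPM in control cells. The two-pore channels overlapped, with 69.8 and 48.6 CPM in shBCOR cells and 75.8 and 49.3 CPM in control cells.

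**Figure D4:**
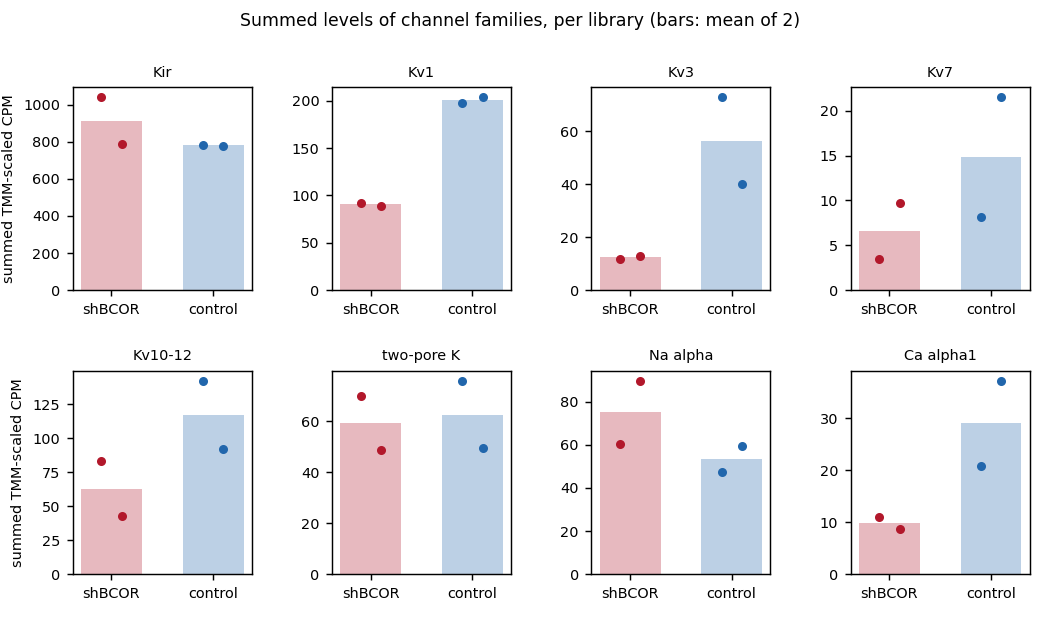
Summed TMM-scaled CPM of channel families in each shBCOR and control library (points), with the mean of 2 as a bar. The Kv1 genes sum to 92 and 89 CPM in shBCOR cells and 197.5 and 204 CPM in control cells, and the two-pore channels overlap.

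The marker sums of amacrine, ganglion, bipolar, horizontal, Müller glia, microglia and vascular cells were below the controls in both shBCOR libraries. Among channel families the summed Kv1, Kv3, Kv4, Kv10 to Kv12 and calcium channel genes were below too. The inward rectifiers, the sodium alpha subunits and the sum over all channel genes were above, the last of these weighted to the few genes with the most counts. Over all genes tested, 23.2% had both shBCOR libraries below both controls, 5.11% were lower at an unadjusted p under 0.05 and 2.42% were lower by DESeq2, and the counts of markers are to be read against these shares. In bulk RNA, fewer cells of a type, less RNA per cell and less RNA from unlabelled cells in the pool cannot be told apart. Ganglion cells, horizontal cells and microglia are not among the cell types named above as arising from progenitors of this age. The 12 amacrine markers summed to 132 to 138 CPM in shBCOR cells and 298 to 300 CPM in control cells, with Pax6 and Tfap2a at 0 throughout; 8 were tested, 0 passed in edgeR (5 at an unadjusted p under 0.05, 4 in DESeq2, all lower), and 6 had both shBCOR libraries below both controls. The other 2, Slc6a9 (log2 fold change 1.12) and Chat (0.51), had overlapping groups and positive values. The 12 ganglion cell markers summed to 371 to 711 CPM in shBCOR cells and 1837 to 1876 CPM in control cells. Most of this sum was the neurofilament Nefl, with 573 and 283 CPM in shBCOR cells and 1414 and 1383 CPM in control cells. Rbpms and Slc17a6 have several records and were at 0, and in control cells Pou4f2 had 2 and 13 counts and Isl2 had 12 and 0. Pou4f1 had 16 and 0 counts in shBCOR cells and 106 and 111 in control cells. Thy1 had 30 and 12 counts in shBCOR cells and 68 and 92 in control cells. Of the 7 tested, 6 had both shBCOR libraries below both controls and 1, the neurofilament Nefm, fell (log2 fold change −3.43 ± 0.33, edgeR adjusted p = 0.0204). At an unadjusted p under 0.05 there were 4 lower ganglion cell markers, and 4 in DESeq2 (Nefm, Nefl, Nefh and Sncg). The 13 bipolar markers summed to 1177 to 1661 CPM in shBCOR cells and 1943 to 2097 CPM in control cells, with Pcp2 and Gng13 among the 3 at 0, and 0 of the 10 tested passed in edgeR (5 at an unadjusted p under 0.05, 2 in DESeq2, all lower). The 10 Müller glia markers summed to 3646 to 4511 CPM in shBCOR cells and 5120 to 5291 CPM in control cells, with none at 0 throughout. Most of this sum was Glul, with 2387 and 3066 CPM in shBCOR cells and 3833 and 3724 CPM in control cells. In edgeR 0 of 7 passed (3 at an unadjusted p under 0.05, 2 in DESeq2, all lower), and 4 had both shBCOR libraries below both controls. Slc1a3 (log2 fold change 0.16) and Clu (0.05) had overlapping groups and positive values. Horizontal cell markers summed to 22.6 to 38.3 CPM in shBCOR cells and 40.4 to 52.3 CPM in control cells over 4 genes, and microglia markers to 4.45 to 6.36 CPM in shBCOR cells and 16.2 to 17.8 CPM in control cells over 6 genes, with Aif1 and Tyrobp at 0. The sum of the 8 vascular and pericyte markers was 378 and 433 CPM in shBCOR cells and 447 and 438 CPM in control cells. Its shBCOR replicate 2 lay just under the lower control, and 2 of the 3 genes tested had overlapping groups. Cone markers overlapped, with 734 to 1114 CPM in shBCOR cells and 1063 to 1186 CPM in control cells over 10 genes. The part of these cell types in the channel values was not tested.

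Genes that work with these channels were read as whole lists, and 0 of their members passed in edgeR. At an unadjusted p under 0.05 these lists held 4 lower sodium channel partners, 2 lower calcium and 1 lower potassium channel auxiliary subunits, 2 higher and 1 lower HCN and cyclic nucleotide-gated channels and 1 lower pump, where 5.11% of all genes were lower and 4.19% higher. DESeq2 called 4, 2 and 0 of the first 3 lists as lower, 2 of the HCN and cyclic nucleotide-gated channels, Cnga1 among them, as higher, and Atp1b1 as lower, where 2.42% of all genes were lower and 2.25% higher. Of the 16 genes listed as sodium channel partners at the axon initial segment and node, 10 were tested, with a median of −1.49. All 10 had a negative log2 fold change (50.9% of all genes had). In 8 of them both shBCOR libraries lay below both controls (23.2% of all genes did). Cntnap1, a protein of the paranode, had 44 and 64 counts in shBCOR cells and 292 and 368 in control cells (−1.98 ± 0.37, SE; edgeR adjusted p = 0.112). The spectrin gene Sptbn4 encodes a protein that ties the initial segment to the cytoskeleton. It had 0 counts in both shBCOR libraries and 32 and 82 in control cells. Against 3 counts per library, counting error alone, it was 12-fold lower (edgeR adjusted p = 0.271), or 6.6-fold without control replicate 2. Nalcn, on this list though itself a sodium leak channel, had 39 and 78 counts in shBCOR cells and 264 and 277 in control cells (−1.60 ± 0.40, adjusted p = 0.236). Ank3, which anchors sodium channels, has several records and was at 0.

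Of the 16 calcium channel auxiliary subunits 7 were tested, with a median of −0.55. Cacng2 is also known for carrying glutamate receptors of the AMPA type to synapses. It had 0 counts in both shBCOR libraries and 83 and 49 in control cells. Against 3 counts per library, counting error alone, it was 13.7-fold lower in shBCOR cells (edgeR adjusted p = 0.209). Cacng3, of the same kind, had 6 and 2 counts in shBCOR cells and 116 and 80 in control cells (−3.85 ± 1.01, adjusted p = 0.262). Of the 15 potassium channel auxiliary and BK subunits 6 were tested, with a median of −0.50. The Kv1 beta subunit Kcnab3 had 0 and 13 counts in shBCOR cells and 118 and 79 in control cells (−3.39 ± 1.31, adjusted p = 0.481), and the BK channel subunit Kcnmb4 had 54 and 70 counts in shBCOR cells and 180 and 170 in control cells (−0.85 ± 0.42, adjusted p = 0.588).

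Of the 8 HCN and cyclic nucleotide-gated channels 7 were tested, with a median of −0.14. The rod light-gated channel subunit Cnga1, also on the rod marker list, had a log2 fold change of 0.41 ± 0.10 (edgeR adjusted p = 0.192), with both shBCOR libraries above the controls. Hcn2, a pacemaker channel subunit, had 14 and 25 counts in shBCOR cells and 154 and 86 in control cells (−1.99 ± 0.66, adjusted p = 0.398). Of the 10 pumps 6 were tested, with a median of 0.01. Atp1b1, a sodium pump subunit, had 103 and 88 counts in shBCOR cells and 433 and 519 in control cells (−1.63 ± 0.34, adjusted p = 0.154), while Atp1b2 had 0.21 ± 0.12 (adjusted p = 0.642).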

How the data were processed

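RNA was measured in 2 shBCOR and 2 control libraries, made from 3.0 to 5.1 ng of RNA with a stranded kit and 15 PCR cycles, per the labels. The authors deposited raw counts per RefSeq record. Tools listed in the submitters' processing notes are TopHat, HTSeq, Trimmomatic and DESeq2, besides those for peaks, with the builds mm10 and mm9 and no roles or versions. The strand setting and the handling of reads shared by several records are not given in the sources used here, so overlapping and antisense genes cannot be told apart.

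Of 45895 records, 45749 (99.7%) were matched to a symbol through RefSeq (GRCm38.p6) and summed per gene; the others, with 0.465% of the counts, stayed as features of their own. edgeR 4.0.16 in R 4.3.3 took TMM factors, dropped low genes by filterByExpr with its group argument, and tested shBCOR against control by robust quasi-likelihood, with Benjamini-Hochberg adjustment over 7775 features and a threshold of 0.05; the code was tested on simulated data. DESeq2 1.42.0 and the other alternatives are given in the closing section. Replicates differed by more than sampling noise (chi-square per degree of freedom 18.0 in shBCOR and 13.2 in control). CPM in the text are TMM-scaled. Intervals and limits cover counting error only.

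The members and lists were chosen with earlier results of these data known. Genes were named by a rule: the 20 members with the smallest p, the 10 with the highest control CPM, the highest of each family, those with counts in both libraries of 1 group and none in the other, the 2 smallest p of each partner list, and Kcnv2, Cacna1f and Kcnj10. Scn7a, Kcnb2, Sptbn4, Hcn2, Rp1, Ank3, the markers and the genes given as having 0 counts or counts in 1 library are named besides, chosen after their values were seen. Some genes that the rule names are not reported here or drawn in the figures, though counts over whole lists include them. The peak lists of the series were not used here, since their mm9 positions were not tied to genes.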

Additional observations from a re-analysis of the deposited data

How the results depend on the processing

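With DESeq2, 189 genes were higher and 204 lower in shBCOR cells, among them 1 channel gene higher and 3 lower. With no filter on low counts these were 79 and 126 genes, and 1 and 2 channel genes (Kcna2 and Kcnc1 are the lower ones). Over genes with a single record alone, 10 genes were higher and 20 lower, 0 of them channel genes, and the median log2 fold change of the channel genes was −0.89. With the replicate block, 5 genes were higher and 18 lower, 0 of them channel genes, and Kcne2 turned to −0.30; same-numbered libraries did not deviate together (correlation −0.00793), so the numbers were not taken as pairs. The numbers are those of the titles, and since shBCOR replicate 2 has the number 3 on its count table, the numbering is in doubt. RLE scaling, a minimum of 1 CPM in 2 libraries and single records in place of genes changed none of the counts of calls by more than 1.5 times. The median of all genes was −0.11 with DESeq2 and −0.12 with no filter, where more low genes are tested. The causes were not tested.

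When each library was left out in turn, genes called as higher ranged from 0 to 213 and as lower from 3 to 322, channel genes called as higher from 0 to 2 and as lower from 0 to 6, and the median of the channel genes from −1.15 to −0.67. Without control replicate 1 the median was −0.67. Without shBCOR replicate 1, 1 channel gene was higher and Kcna1, Kcna6, Kcnc1, Kcnh5, Kcnj5 and Scn2b lower; without shBCOR replicate 2, 2 were higher, Kcnj14 among them, and Kcna2, Kcnc1, Kcnd2 and Kcnj5 lower. The lone library is assumed to vary like the other group. Kcne2 ranged from −1.46 to 0.77 and Kcnk1 from −0.32 to 0.68, so neither has a direction. Of 226 values of 21 named genes under these settings, 5 changed sign and 16 passed the threshold where the main value did not. Depth limits the 11 genes with counts that were not tested, whose largest count was 21.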

Other observations

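For 8 channel genes 1 library alone held counts. The two-pore channel Kcnk12 had 15 counts in shBCOR replicate 2, Kcnf1 and Kcns1, subunits that form no channel alone, had 7 and 4 in shBCOR replicate 1, and Kcnd1 had 21 in control replicate 2. Kcnj6 had 9 counts in control replicate 2, and Kcnk6, Kcnk4 and Kcnh3 had 6, 5 and 1 in control replicate 1.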
